A study of Mus musculus with 12 samples.

Results

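The 10 genes described here encode the enzymes that make, recycle and break down guanine nucleotides: Impdh2, Impdh1, Gmps, Guk1, Hprt, Gmpr, Gmpr2, Pnp, Gda and Gch1. They were chosen by symbol among the rows of the deposited count tables, which held 51826 genes for forelimbs and 55401 for cultures. RNA sequencing gave 12 mouse libraries in 6 groups of 2. The forelimb groups were wild type (WT) and Prx-cKO, both at embryonic day E12.5. Prx-cKO embryos lacked Impdh2 in the progenitors of the limb mesenchyme, the loose tissue that forms cartilage and tendon, so that cells of other origin in a forelimb, such as blood, muscle, vessel and skin cells, are not the ones targeted. The culture groups were WT and LysM-cKO (Impdh2 deleted in the myeloid lineage), each under the titles R40D3 and R0D3. All 8 cultures started from bone marrow grown for 3 days with L929 supernatant standing in for 20 ng/ml of M-CSF, the growth factor of macrophages. The protocol then names 40 ng/ml of RANKL, the cytokine that turns macrophages into osteoclasts, the cells that resorb bone. The replicate 1 and replicate 2 cultures were deposited as separate tables of raw counts. The labels do not spell out R40 and R0, and the reading of them as RANKL doses is an inference. Sex, strain, floxed alleles and whether animals were pooled are not given in the sources used here, nor whether replicates came from separate animals, so that p-values measure only the spread between these samples.

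Guanine nucleotides are made from inosine monophosphate (IMP), the branch point of purine synthesis. IMP dehydrogenase oxidises IMP to xanthosine monophosphate in the rate-limiting step, and its isozymes are encoded by Impdh1 and Impdh2. GMP synthetase (Gmps) then makes GMP, and guanylate kinase (Guk1) phosphorylates GMP to GDP. In salvage, purine nucleoside phosphorylase (Pnp) frees guanine and hypoxanthine from nucleosides, and Hprt attaches these bases to ribose phosphate again. GMP reductases (Gmpr and Gmpr2) turn GMP back into IMP, guanine deaminase (Gda) removes guanine to xanthine, and GTP cyclohydrolase (Gch1) commits GTP to tetrahydrobiopterin. In the cultures 10 of the 10 genes were tested. In the forelimb 9 had a row by their own identifier and 8 passed the filter on low counts. Gda did not pass, and Pnp (ENSMUSG00000115338, chr14:50931082-50965237 in GRCm38) was not analysed there by its own identifier.

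Impdh2 (ENSMUSG00000062867) lies on the plus strand at chr9:108560286-108565584 in GRCm38. A processed pseudogene, Impdh2-ps, lies on the plus strand at chr8:100030558-100032102 and carries the whole Impdh2 coding sequence of 1545 bases with 4 differences, an identity of 99.7%. The sequences around these differences are shown because they are the places of the coding sequence where a read can tell the gene from the copy. They come from the GENCODE M21 transcripts, run 5′ to 3′ and hold 41 bases each, with the differing bases in capitals and positions counted from 1 at the A of the start codon. In the first the change is C270T, with the Impdh2 base written first, in the second they are T882C and A891G, and in the third it is C1135T.
Impdh2, bases 250 to 290: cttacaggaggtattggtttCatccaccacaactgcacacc
Impdh2-ps, bases 250 to 290: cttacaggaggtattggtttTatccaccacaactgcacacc
Impdh2, bases 862 to 902: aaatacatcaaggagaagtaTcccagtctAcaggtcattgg
Impdh2-ps, bases 862 to 902: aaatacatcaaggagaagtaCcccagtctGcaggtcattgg
Impdh2, bases 1115 to 1155: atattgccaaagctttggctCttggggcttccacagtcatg
Impdh2-ps, bases 1115 to 1155: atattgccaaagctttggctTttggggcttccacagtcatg

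Between these places the coding sequences are the same letter for letter, with stretches of 269, 611, 8, 243 and 410 bases. Of the 1496 windows of 50 bases in the coding sequence, 10.6% hold a difference. The read length and the treatment of reads that match more than one place are not given in the sources used here, so counts of Impdh2 and Impdh2-ps are each uncertain by what was divided between them. Of the counts given to either, Impdh2-ps held 6.04% (95% Clopper-Pearson interval 5.62 to 6.49) in forelimb WT replicate 1. In the other forelimb libraries it held 1.24% (WT replicate 2), 2.75% (Prx-cKO replicate 1) and 1.72% (Prx-cKO replicate 2). In the cultures the pseudogene row held far more, from 38.3% to 42.8% in the 4 WT libraries and from 31.9% to 39.6% in the 4 LysM-cKO libraries. The interval covers counting error only.

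The other members lie in GRCm38, by GENCODE M21, at chr6:29200434-29216364 (Impdh1, minus strand), chr3:63976106-64022579 (Gmps, plus), chr11:59183875-59192212 (Guk1, minus), chr13:45507444-45553800 (Gmpr, plus), chr14:55671941-55679200 (Gmpr2, plus), chr19:21391307-21473445 (Gda, minus) and chr14:47153895-47189413 (Gch1, minus). Some overlap or resemble other genes, and whether counting used strand is not given in the sources used here. Exons of Gmpr2 share 1540 bases (39.2% of its merged length) with Tinf2 on the opposite strand, and those of Gmpr share 375 bases (16.1%) with Atxn1. Pnp resembles its neighbour Pnp2 at 97.2% over 1084 bases. The forelimb table held a row for Gm49342 (ENSMUSG00000021871), whose exons overlap those of Pnp by 718 bases on the same strand and match them at 99.9% over 722 bases. Its level was 63.4 and 60.6 CPM (counts divided by the scaled library size) in forelimb WT, 69.1 and 89.1 CPM in Prx-cKO, and 0 counts in each of the 8 culture libraries, whose table also has the row for Pnp. Whether the forelimb row holds reads of Pnp was not tested, so it is given under its own identifier and is not counted as a member.

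The forelimb libraries held 28892215 to 69466572 counts and the cultures 16009146 to 19221865. Limb mesenchymal markers were present in the forelimb (7 of 7 at 1 CPM or more), with a sum of 1983 to 2127 CPM in WT and 1586 to 1684 in Prx-cKO. Cartilage markers summed to 790.4 to 882 CPM in WT and to 279 to 341 in Prx-cKO, muscle markers to 273 to 287 and to 400.2 to 819.9, endothelial markers to 104 to 112 and to 139 to 142, and myeloid markers to 34.99 to 36.5 and to 61.3 to 69.9. Surface ectoderm markers summed to 586 to 716 CPM in WT and to 724 to 789 in Prx-cKO. Erythroid markers overlapped, at 1330 to 1382 CPM in WT and 1263 to 1422 in Prx-cKO. All 8 cultures are labelled osteoclast, yet the 9 osteoclast markers differed between titles. At R40D3 they summed to 25879 to 38280 CPM in WT and to 12902 to 24451 in LysM-cKO, so both LysM-cKO libraries lay below both WT libraries. At R0D3 they summed to 273 to 383 CPM in WT and to 249 to 330 in LysM-cKO, and Calcr was at 0. Macrophage markers summed to 27878 to 44545 CPM in WT cultures and to 18995 to 25223 in LysM-cKO. That gap lay in Lyz2, the lysozyme gene whose locus carries the LysM Cre, at 18949 to 35255 CPM in WT and 11302 to 16856 in LysM-cKO. Without Lyz2, a sum chosen after the data were seen, the other 6 markers overlapped, at 8036 to 9291 CPM in WT and 7693 to 9538 in LysM-cKO. Stromal fibroblast markers summed to 1151 to 1545 CPM except in LysM-cKO replicate 2, with 408 at R40D3 and 478 at R0D3. Proliferation markers summed to 222 to 241 CPM (WT) and 255 to 419 CPM (LysM-cKO) at R40D3, and at R0D3 to 344 to 460.2 and 436 to 867 CPM, where the genotypes overlapped. What part any of these have in the results on the enzymes was not tested.

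In the forelimb, Impdh2 was the most abundant transcript among the 9 members with a row there, which leaves out Pnp. Per kilobase of its longest coding transcript it stood at 143 ± 4.50 CPM in WT (SD, n = 2), followed by Guk1 at 50.8 ± 2.84, Hprt at 27.4 ± 4.18 and Gmpr2 at 23.9 ± 4.10, the last pair overlapping between libraries. Gmps followed at 19.8 ± 0.0394 CPM per kilobase, Impdh1 at 12.3 ± 1.61 and Gmpr at 9.42 ± 0.131, each above the next in every WT library. Gch1 (0.535 ± 0.0460) and Gda (0.0186 ± 0.00450) were close to absent in these per-length units. The order of these members in Prx-cKO was the same, with Impdh2 at 99.3 ± 11.3 CPM per kilobase and Guk1 at 73.6 ± 13.7. Gm49342, which overlaps Pnp and is not counted as a member, stood at 82.7 ± 2.61 CPM per kilobase of merged exons in WT and 105 ± 18.9 in Prx-cKO.

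**Figure D1:**
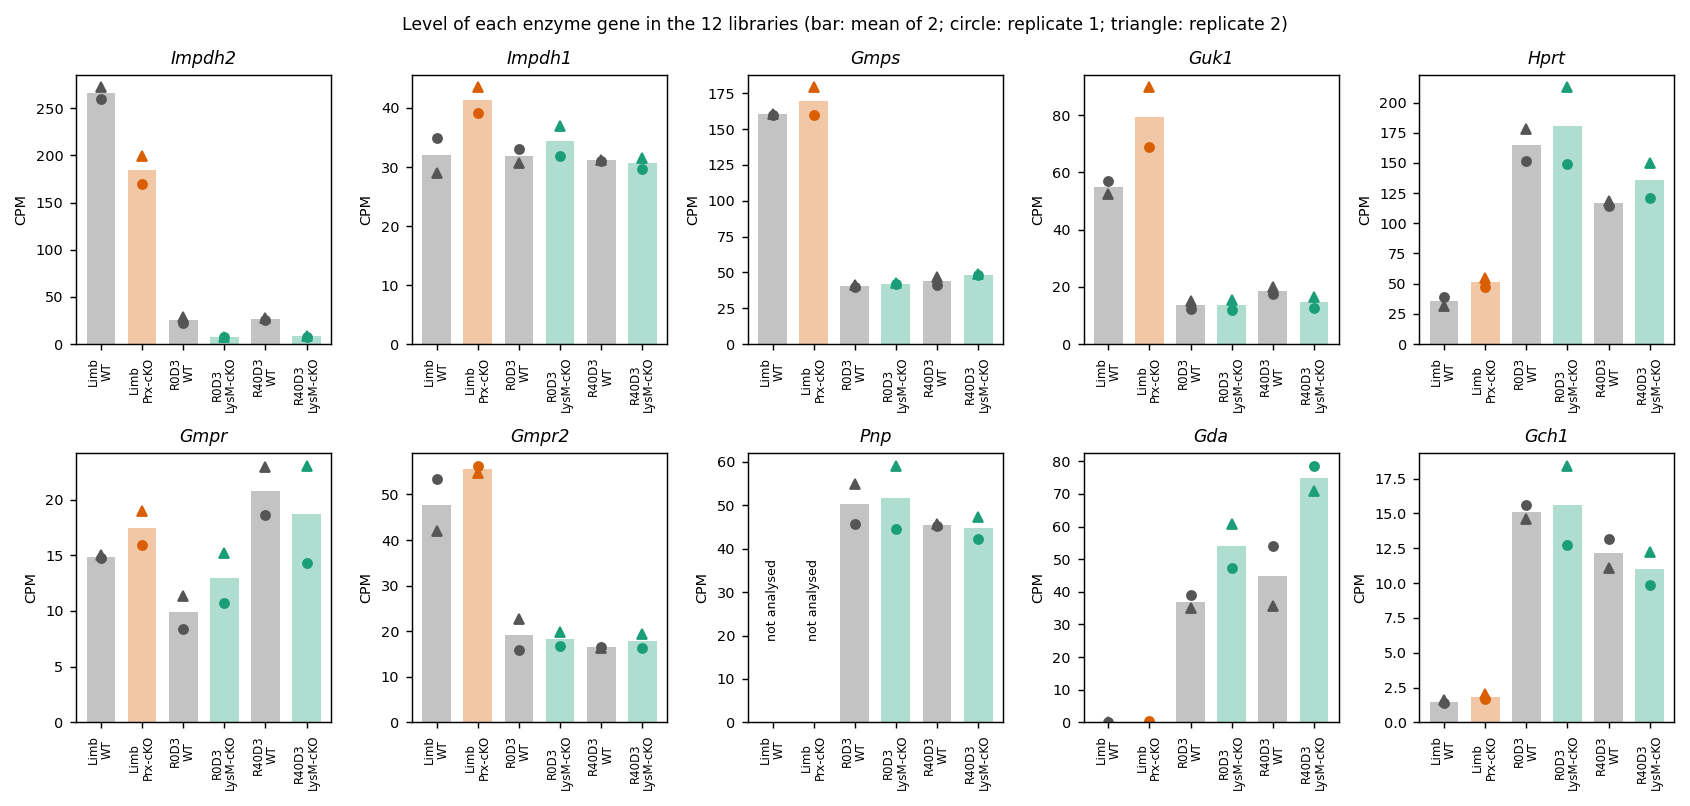
Level of each gene in CPM (y axis, from 0, one scale per gene) in the 12 libraries, by group (x axis). Bars are means of 2 libraries, circles replicate 1 and triangles replicate 2. Impdh2 lies at 260.4 and 272 CPM in forelimb WT, between 22.3 and 28.2 CPM in WT cultures and between 7.03 and 8.38 CPM in LysM-cKO cultures. Impdh1 lies between 29.0 and 43.5 CPM in the libraries shown.

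The forelimb comparison asked how the tissue differs when Impdh2 is deleted in limb mesenchyme. WT forelimbs gave 260.4 and 272 CPM of the deleted gene, and Prx-cKO forelimbs gave 169.7 and 199 CPM. Both Prx-cKO values lay below both WT values, with 69.3% of the WT level left. The difference, −0.53 on the log2 scale (SE 0.16, 95% interval −0.92 to −0.14), did not pass (edgeR quasi-likelihood, adjusted p 0.443). In such bulk tissue, fewer cells of a type and less RNA per cell cannot be told apart.

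No member passed in the forelimb at an adjusted p under 0.05 (0 of 8, beside a percentage called of 0 over the 19987 genes tested by edgeR). At an unadjusted p under 0.05 there were 3 of 8 members (Impdh2, Guk1 and Hprt), beside 10.5% of all genes. Without Impdh2, the deleted gene, there were 2 of 7. DESeq2 called 0 of the 8 members and 301 genes in all. Between the genotypes 7 of the 8 had libraries that did not overlap, beside 43.2% of all genes. Of these 1 was lower in Prx-cKO (Impdh2) and 6 were higher (Impdh1, Guk1, Hprt, Gmpr, Gmpr2 and Gch1), beside 21% and 22.2% of all genes. Without TMM scaling the Gmpr2 libraries overlapped, which left 5 higher, beside 16.5% of all genes, with 27.5% lower. The median log2 difference of the 8 members was 0.28, against −0.03 for all genes tested. With Impdh2 set aside, 7 of the other 7 had a positive value, and without TMM scaling, which moves the median of all genes by −0.0993, Gmps turned to −0.018.

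For Impdh1, the other isozyme, WT forelimbs gave 34.96 and 29.0 CPM and Prx-cKO forelimbs 39.2 and 43.5 CPM. The Prx-cKO libraries were the higher ones (log2 fold change 0.37, SE 0.18, edgeR adjusted p 0.538). For Gmps, the next enzyme of the branch, WT gave 160.1 and 161 CPM and Prx-cKO 160.1 and 179 CPM. Its groups overlapped, and the 95% interval of its log2 fold change ran from −0.28 to 0.45.

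WT forelimbs gave 56.9 and 52.6 CPM of Guk1 and Prx-cKO forelimbs 68.8 and 89.8 CPM (log2 fold change 0.54, SE 0.19, edgeR adjusted p 0.465). The Prx-cKO libraries differed from each other by more than the lower of them differed from WT. Hprt gave 39.1 and 31.5 CPM in WT against 47.2 and 54.8 CPM in Prx-cKO, with both Prx-cKO libraries higher (log2 fold change 0.53, SE 0.19, edgeR adjusted p 0.467). Hprt lies on chromosome X (chrX:52988137-53021659), and Xist counts exceeded those of Ddx3y in 1 library of each forelimb genotype (WT replicate 1 and Prx-cKO replicate 2). The Hprt value was 0.54 with that difference as a term in the fit, an alternative chosen after the data were seen.

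The reductases and Gch1 did not pass, with intervals on both sides of 0 and Prx-cKO libraries above the WT ones. Gmpr gave 14.7 and 15.03 CPM in forelimb WT and 15.9 and 19.0 CPM in Prx-cKO, with a 95% interval of −0.29 to 0.75 for the log2 fold change. Gmpr2 gave 53.5 and 41.9 CPM in WT and 56.3 and 54.6 CPM in Prx-cKO, with an interval of −0.24 to 0.68. Gch1 gave 1.39 and 1.57 CPM in WT and 1.67 and 2.02 CPM in Prx-cKO, with an interval of −0.63 to 1.27. Gda had 5 and 6 counts in WT and 8 and 2 counts in Prx-cKO, too few for a comparison.

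**Figure D2:**
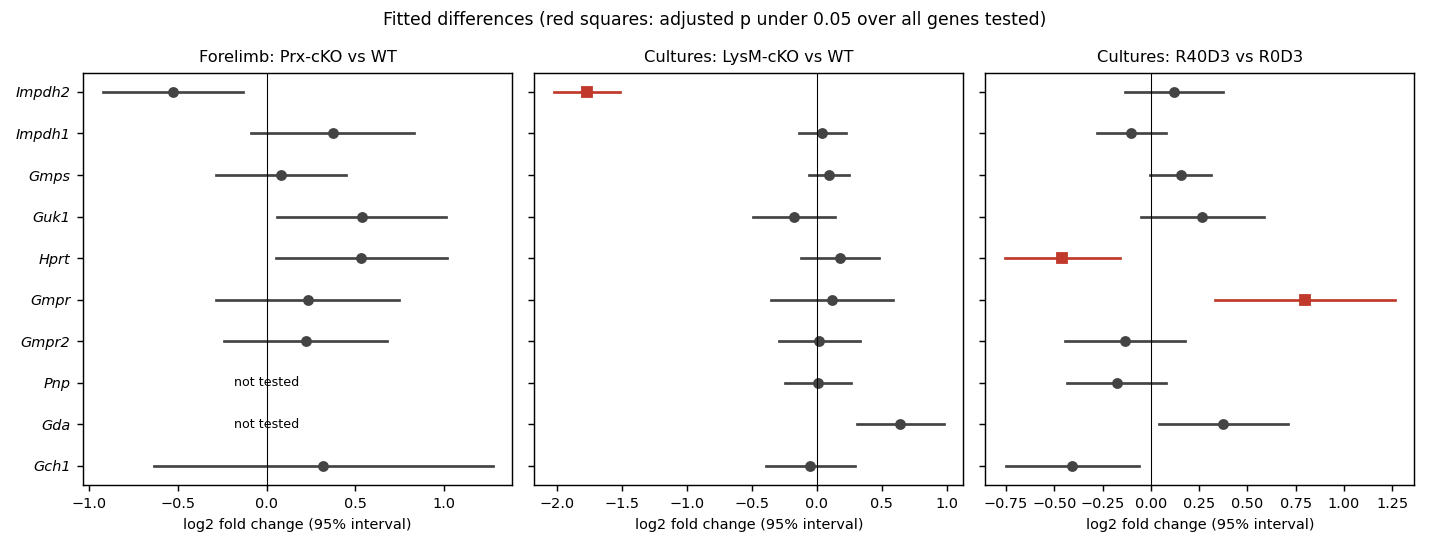
Fitted log2 fold change (x axis) of each gene (y axis) with its 95% interval, for Prx-cKO against WT forelimbs, LysM-cKO against WT cultures (mean over R40D3 and R0D3) and R40D3 against R0D3 cultures (mean over genotypes). Red squares passed an adjusted p under 0.05 and grey circles did not; the x scales differ. Impdh2 at −1.77 in the cultures, and Hprt at −0.46 and Gmpr at 0.80 between R40D3 and R0D3, are the values that passed.

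In the cultures, the expression of the set was arranged differently. Hprt led by a wide margin, at 128 ± 14.6 CPM per kilobase in WT R0D3 and 90.3 ± 2.04 in WT R40D3 (SD, n = 2). At WT R0D3, Pnp came next at 17.1 ± 2.22 CPM per kilobase, then Impdh2 (13.6 ± 2.25), Guk1 (12.7 ± 1.85) and Impdh1 (12.3 ± 0.662), whose libraries overlapped. Gmpr2 (9.67 ± 2.39), Gda (6.80 ± 0.533), Gmpr (6.26 ± 1.34), Gch1 (5.45 ± 0.255) and Gmps (5.02 ± 0.127) followed. In LysM-cKO cultures Impdh2 stood last of the 10 at R0D3 (3.87 ± 0.124 CPM per kilobase) and ninth at R40D3 (4.33 ± 0.25, overlapping Gch1 at 3.98 ± 0.588).

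The forelimb and culture tables were scaled apart, so levels are only set side by side. In WT, Impdh2 averaged 266 CPM in the forelimb, 25.3 in R0D3 and 26.7 in R40D3, whereas Impdh1 averaged 32.0, 31.9 and 31.1 CPM. Gmps (160.3 against 40.7 and 43.9 CPM) and Guk1 (54.8 against 13.6 and 18.7 CPM) were higher in the forelimb. Hprt (35.3 against 165 and 116 CPM), Gch1 (1.48 against 15.1 and 12.1 CPM) and Gda (0.101 against 36.9 and 44.9 CPM) were higher in the cultures. These differences between tissues were not tested.

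The culture comparison of genotypes asked what deletion of Impdh2 in the myeloid lineage changes. At R40D3, Impdh2 gave 25.7 and 27.7 CPM in WT libraries against 7.72 and 8.38 CPM in LysM-cKO libraries. At R0D3 the values were 22.3 and 28.2 CPM (WT) and 7.36 and 7.03 CPM (LysM-cKO). The 4 LysM-cKO libraries lay well below the 4 WT libraries, with 29.3% of the WT level left. The log2 fold change over both titles was −1.77 (SE 0.11, 95% interval −2.02 to −1.52, edgeR adjusted p 0.00289). It was −1.73 at R40D3 (SE 0.15, edgeR adjusted p 0.0386) and −1.81 at R0D3 (SE 0.16, edgeR adjusted p 0.0323).

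The culture value over both titles kept its call without any single library, from −1.85 to −1.68 (edgeR adjusted p 0.014 to 0.0392). At R40D3 alone, the call was lost without any one of its 4 libraries (log2 −1.81 to −1.65, edgeR adjusted p 0.205 to 0.661), and at R0D3 likewise (−1.97 to −1.63, edgeR adjusted p 0.128 to 0.546). Impdh2-ps gave 18.0 and 19.0 CPM (WT) against 4.18 and 5.48 CPM (LysM-cKO) at R40D3, and 16.7 and 17.5 against 3.45 and 3.94 CPM at R0D3. The pseudogene row was thus lower in the same 4 libraries, with a log2 difference of −2.08 (SE 0.12, edgeR adjusted p 0.00289). With its counts added to Impdh2, the fold change of the gene was −1.89 (edgeR adjusted p 0.000983). In the forelimb the pseudogene gave 16.7 and 3.43 CPM (WT) and 4.80 and 3.48 CPM (Prx-cKO), and the groups overlapped.

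Over both titles 1 of the 10 members passed, beside 0.0214% of the 14030 genes tested. It was Impdh2, the gene deleted by design. The 3 genes that passed were Impdh2 and Impdh2-ps, which were lower, and Lyz1, chosen after its value was seen, which was higher. At R40D3 and at R0D3 the count was again 1 of 10, beside 0.0143% of genes in each, and with the replicate number as a block it was 1 of 10 over both titles, beside 0.962%. Over both titles the libraries of the genotypes did not overlap for 1 of 10 members (Impdh2), beside 3.56% of genes. Within a title they did not overlap for 5 of 10 members at R40D3, beside 38.7% of genes, and for 3 of 10 at R0D3, beside 32.3%. With Impdh2 left out, 0 of the other 9 members passed by edgeR over both titles, at R40D3 or at R0D3. Their median log2 difference was 0.042 over both titles, against −0.0022 for all genes tested.

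Impdh1 did not pass in these cultures. At R40D3 it gave 31.0 and 31.3 CPM (WT) and 29.6 and 31.6 CPM (LysM-cKO), and at R0D3 33.1 and 30.7 against 31.8 and 36.9 CPM. The genotypes overlapped under both titles. The log2 fold change over both was 0.042 with a 95% interval of −0.14 to 0.22 (edgeR adjusted p 0.870), and the highest of the 8 libraries was LysM-cKO replicate 2 at R0D3.

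**Figure D3:**
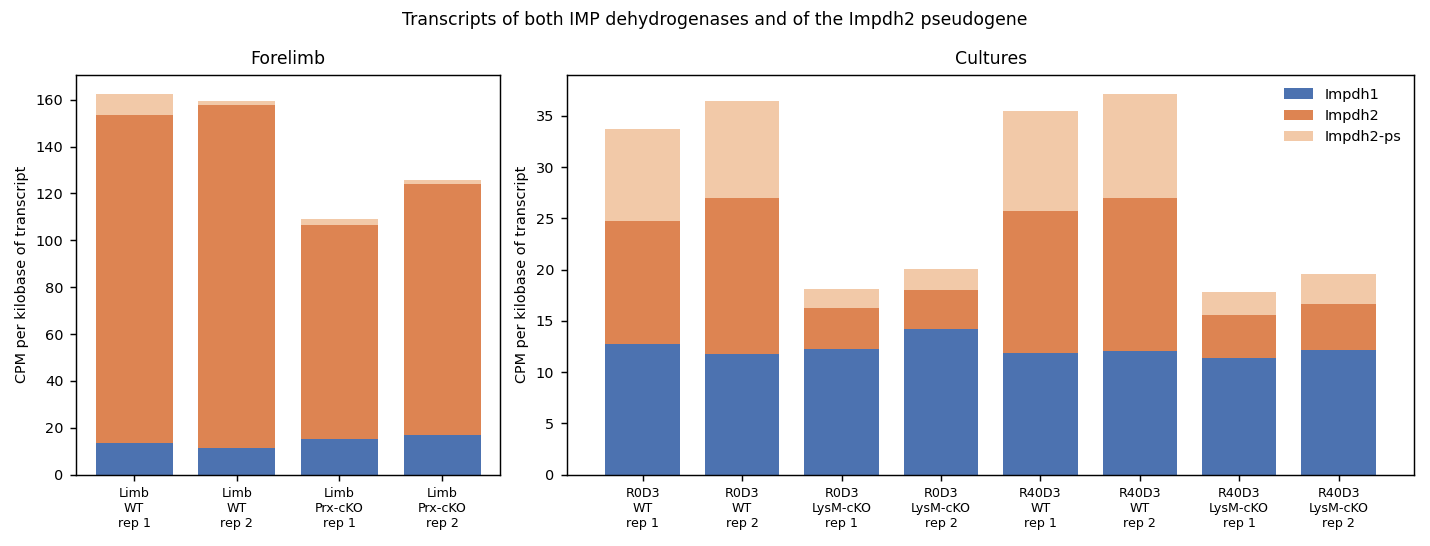
Impdh1, Impdh2 and Impdh2-ps in CPM per kilobase (y axis, stacked, from 0, with a different scale for forelimbs and cultures) in each library (x axis). Lengths are those of the longest coding transcripts, and the pseudogene is drawn with the length of Impdh2. In WT forelimbs Impdh2 makes up most of each bar, whereas in WT cultures Impdh1 and Impdh2 are of like height and in LysM-cKO cultures Impdh1 is the larger.

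The share of Impdh2 in the transcripts of both isozymes, per length, put these levels together. It was 91.2% and 92.9% in forelimb WT and 85.8% and 86.5% in Prx-cKO. In the WT cultures it was 53.7% and 55.4% at R40D3 and 48.5% and 56.3% at R0D3, and in LysM-cKO it was 26.7% and 27.1% at R40D3 and 24.4% and 21.04% at R0D3. Within each tissue the genotypes did not overlap, and Impdh2 made up the larger share in every forelimb library and the smaller in every LysM-cKO library. Group means were 92.1% ± 1.18 (forelimb WT), 86.2% ± 0.491 (Prx-cKO), 54.5% ± 1.17 (WT R40D3), 52.4% ± 5.49 (WT R0D3), 26.9% ± 0.232 (LysM-cKO R40D3) and 22.7% ± 2.40 (LysM-cKO R0D3), each SD with n = 2.

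The shares depend on the length and on the pseudogene, by alternatives chosen after the data were seen. With merged exonic lengths the WT cultures moved to 47.9% at R40D3 and 45.8% at R0D3, and with Impdh2-ps added to 67.0% and 65.0%, so that the larger isozyme in WT cultures differs between these ways of counting. In LysM-cKO cultures the share stayed below that of Impdh1 in both cases (22.0% and 18.4%, or 37.0% and 30.8%). The sum of both isozymes was 26.3 ± 0.865 CPM per kilobase in WT R40D3 and 25.9 ± 1.59 in WT R0D3, against 16.1 ± 0.791 and 17.1 ± 1.26 in LysM-cKO (SD, n = 2). With Impdh2-ps added, the sum was 36.3 ± 1.23 in WT R40D3 and 35.1 ± 1.90 in WT R0D3, against 18.7 ± 1.29 and 19.1 ± 1.44 in LysM-cKO.

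Among the other members of the cultures, guanine deaminase had the largest genotype difference, and it did not pass. At R40D3 Gda gave 54.1 and 35.7 CPM in WT libraries against 78.6 and 70.9 CPM in LysM-cKO libraries. At R0D3 the values were 39.0 and 34.9 CPM (WT) and 47.4 and 60.8 CPM (LysM-cKO). The genotypes did not overlap within either title, and LysM-cKO was higher in 4 of 4 pairs with the same number, by 1.22 to 1.98 times. The share of all genes with 4 of 4 is not given here. Same-numbered libraries deviated together across groups, so the pairs are not independent of each other. The log2 fold change of Gda over both titles was 0.64 (SE 0.14, 95% interval 0.31 to 0.98, edgeR adjusted p 0.344). With the replicate number as a block it was 0.65 (edgeR adjusted p 0.0585), and DESeq2 called it (0.64, adjusted p 0.0112), among 76 genes in all.

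The remaining members did not pass between genotypes, and their 95% intervals over both titles lay on both sides of 0. Gmps had a log2 fold change of 0.093 (95% interval −0.064 to 0.25) and was higher in LysM-cKO in 4 of 4 same-numbered pairs, by 1.03 to 1.17 times. For this count too, the share of all genes is not given here. Hprt stood at 0.18 (−0.12 to 0.47), Gmpr at 0.12 (−0.35 to 0.58), Gmpr2 at 0.020 (−0.29 to 0.33), Pnp at 0.0095 (−0.25 to 0.26) and Gch1 at −0.051 (−0.39 to 0.29). Guk1 stood at −0.18 (−0.49 to 0.14). At R40D3 the Guk1 libraries were separate, at 17.6 and 19.8 CPM in WT and 12.7 and 16.3 CPM in LysM-cKO (log2 −0.37, SE 0.19, edgeR adjusted p 0.659), whereas at R0D3 they overlapped, at 12.2 and 15.05 against 12.01 and 15.5 CPM.

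The comparison of R40D3 with R0D3 sets cultures with high osteoclast marker levels against cultures with low ones. Gmpr, a GMP reductase, rose and Hprt fell, so 2 of 10 members passed, beside 25.9% of all genes tested, with 1 higher beside 15.6% and 1 lower beside 10.3%. Over both genotypes, 0 of 10 had libraries that did not overlap, beside 29.4% of genes. Gmpr gave 18.6 and 23.0 CPM in WT R40D3 against 8.39 and 11.4 in WT R0D3, and 14.3 and 23.0 CPM in LysM-cKO R40D3 against 10.7 and 15.2 in LysM-cKO R0D3. It was higher at R40D3 in 4 of 4 same-numbered pairs, by 1.33 to 2.22 times, while the spread between replicate numbers let the 8 libraries overlap. Its log2 fold change was 0.80 (SE 0.20, edgeR adjusted p 0.0234), and 0.80 with the replicate block (edgeR adjusted p 0.000225).

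Hprt gave 115 and 118 CPM in WT R40D3 against 151 and 178 in WT R0D3, and 121 and 149.9 CPM in LysM-cKO R40D3 against 149 and 213 in LysM-cKO R0D3. It was lower at R40D3 in 4 of 4 same-numbered pairs. The log2 fold change was −0.46 (SE 0.13, edgeR adjusted p 0.0349), and −0.45 with the block (edgeR adjusted p 0.00135). Without the block these calls depended on single libraries. The Hprt call was lost without any 1 of the 4 WT libraries, LysM-cKO R40D3 replicate 1 or LysM-cKO R0D3 replicate 2 (log2 −0.52 to −0.32, edgeR adjusted p 0.0607 to 0.123), and remained without LysM-cKO R0D3 replicate 1 or LysM-cKO R40D3 replicate 2. The Gmpr call was lost without LysM-cKO R0D3 replicate 1, WT R0D3 replicate 1, LysM-cKO R40D3 replicate 2 or WT R40D3 replicate 2 (log2 0.57 to 0.69, edgeR adjusted p 0.0659 to 0.098).

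**Figure D4:**
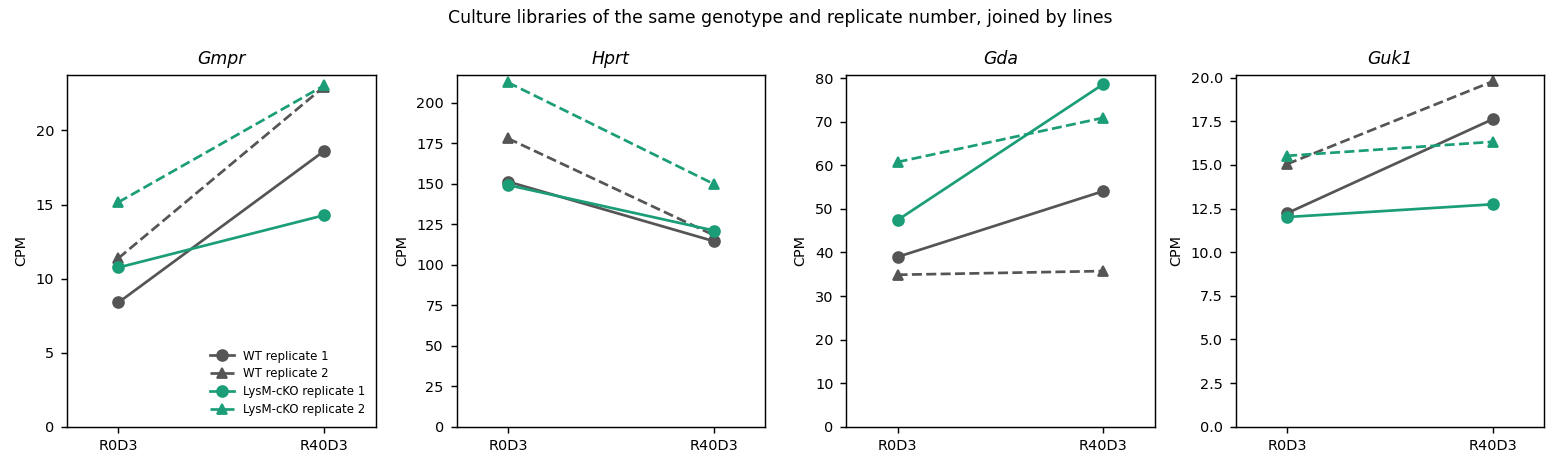
Gmpr, Hprt, Gda and Guk1 in CPM (y axis, from 0) at R0D3 and R40D3 (x axis), with a line for each genotype and replicate number. All 4 Gmpr lines rise and all 4 Hprt lines fall. The green LysM-cKO points of Gda lie above the grey WT points under both titles, and the Guk1 lines rise more in WT than in LysM-cKO, a difference that did not pass the interaction test (log2 −0.38, 95% interval −1.02 to 0.26).

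With the replicate number as a block, 5 of 10 members passed, beside 38.5% of all genes. The block added Guk1 (log2 0.27, edgeR adjusted p 0.0317), Gda (0.37, edgeR adjusted p 0.0484) and Gch1 (−0.40, edgeR adjusted p 0.0441). Guk1 and Gda were higher at R40D3 in 4 of 4 pairs, and Gch1 was lower in 4 of 4. Of the members that did not pass, Gmps was also higher in 4 of 4 (1.02 to 1.15 times) and Pnp lower in 4 of 4 (0.80 to 0.99 times). These pairs use the same values as the block fit, and the share of all genes with 4 of 4 is not given here. Gch1 gave 13.2 and 11.1 CPM in WT R40D3 against 15.6 and 14.6 in WT R0D3, and 9.89 and 12.2 against 12.8 and 18.4 in LysM-cKO. Impdh2 (95% interval −0.13 to 0.37), Impdh1 (−0.28 to 0.077), Gmps (−0.0025 to 0.31), Gmpr2 (−0.45 to 0.18) and Pnp (−0.43 to 0.077) did not pass in either fit. Gmps gave 40.9 and 46.9 CPM in WT R40D3 against 40.0 and 41.4 in WT R0D3. Pnp gave 45.3 and 45.6 CPM in WT R40D3 against 45.7 and 54.9 in WT R0D3, and Gmpr2 gave 16.5 and 16.4 against 15.9 and 22.6 CPM. In WT the Pnp libraries at R40D3 were the lower ones, and those of Gmps and Gmpr2 overlapped.

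Taken by genotype, Gmpr alone of the members passed in WT (log2 1.07, SE 0.29, edgeR adjusted p 0.041, 1 of 10 beside 16.9% of genes), while 5 of 10 had libraries that did not overlap, beside 62% of genes. In LysM-cKO 0 of 10 passed, beside 10.1% of genes, with 2 of 10 at an unadjusted p under 0.05 (Gda and Gch1), beside 24%, and 5 of 10 that did not overlap, beside 49.8%. There Gmpr stood at 0.52 on the log2 scale (SE 0.28, edgeR adjusted p 0.314). With the block, Guk1 and Hprt joined Gmpr in WT (3 of 10, beside 28.3%), and Hprt (edgeR adjusted p 0.0227) and Gmpr (edgeR adjusted p 0.024) passed in LysM-cKO (2 of 10, beside 21.3%). DESeq2 called 0 members in LysM-cKO, where its count over all genes is not given here. The Gmpr call in WT was lost without any one of its 4 libraries (log2 0.87 to 1.31, edgeR adjusted p 0.0806 to 0.247). The interaction of genotype with title was −0.55 for Gmpr (95% interval −1.48 to 0.38), and 0 of 10 members passed it by edgeR, beside 0% of all genes. At an unadjusted p under 0.05 there were 0 of 10 members, beside 1.77% of genes, and DESeq2 called 0.

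Over the 8 culture libraries, the genes whose log2 CPM followed Impdh2 most closely, among 10078 genes averaging at least 5 CPM, were Impdh2-ps (Pearson r 0.99), Uqcc3 (0.96), which helps assemble respiratory complex III, and Fbxl6 (0.94), an F-box protein. For Impdh1 they were Eftud2 (0.98), a GTPase of the spliceosome, Psmd9 (0.95), a proteasome assembly factor, and Lrrfip2 (0.95). These are descriptions of libraries that share depth and genotype, with no test.

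A further 45 genes stand next to these enzymes, in synthesis of IMP and AMP, adenine salvage, nucleotide phosphorylation, purine breakdown, nucleoside transport, ribonucleotide reduction and tetrahydrobiopterin synthesis. In the forelimb 44 were tested by edgeR and 0 passed, with 15 at an unadjusted p under 0.05, beside 10.5% of all genes. The median log2 difference was 0.35, against −0.03 for all genes, with 34 higher and 10 lower in Prx-cKO. The smallest p-values belonged to Nme4 (nucleoside diphosphate kinase, log2 0.91, SE 0.19), Rrm2 (a ribonucleotide reductase subunit, 0.68, SE 0.16) and Aprt (adenine salvage, 0.70, SE 0.18), none of which passed (edgeR adjusted p 0.385, 0.414 and 0.416). Aprt averaged 87.9 ± 6.504 CPM in WT against 143 ± 24.2 CPM in Prx-cKO (SD, n = 2).

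In the cultures 40 of the 45 were tested. Between genotypes 0 of 40 passed in edgeR over both titles, at R40D3 or at R0D3, beside 0.0214%, 0.0143% and 0.0143% of all genes. At an unadjusted p under 0.05 there were 3, 1 and 0 of the 40, beside 9.76%, 7.47% and 4.42% of all genes. Adk, adenosine kinase, had the smallest p over both titles (log2 0.40, SE 0.15, edgeR adjusted p 0.487), followed by Nudt16 (−0.29) and the transporter Slc29a1 (−0.23). At R0D3 the smallest belonged to Dck (0.50), Rrm2 (0.94) and Pfas (0.25), each with an edgeR adjusted p of 0.997. Rrm2 averaged 39.1 ± 26.6 CPM in LysM-cKO R0D3 against 20.3 ± 1.75 CPM in WT (SD, n = 2).

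Between R40D3 and R0D3, 13 of the 40 passed in edgeR, 7 higher and 6 lower, beside 25.9% of all genes. The equilibrative nucleoside transporter Slc29a1 rose from 104 ± 9.36 to 188 ± 32.5 CPM (SD, n = 4; log2 0.85, SE 0.10, edgeR adjusted p 0.000911). Aprt, which salvages adenine as Hprt salvages hypoxanthine and guanine, fell from 107 ± 10.8 to 70.3 ± 3.05 CPM (log2 −0.61, SE 0.08, edgeR adjusted p 0.00177). With the block 21 of the 40 passed, 12 higher and 9 lower, beside 38.5% of all genes. By genotype, 3 of 40 passed in WT, beside 16.9% of all genes, and 4 of 40 in LysM-cKO, beside 10.1%, with Slc29a1 higher and Aprt lower in each. By edgeR 0 of 40 passed the interaction, beside 0% of all genes, with 0 of 40 at an unadjusted p under 0.05, beside 1.77%.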

How the data were processed

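Read counts per gene were deposited by the authors as raw whole numbers. Per the submitters' processing notes, FastQC 0.11.2, Trimmomatic 0.36, HISAT2 2.1.0, DESeq2 1.12.4 and build GRCm38 were used; the counting tool and use of strand are not given in the sources used here. Symbols were matched for 99.63% (forelimb) and 99.53% (culture) of identifiers, and positions and lengths come from GENCODE M21. The filterByExpr rule of edgeR 4.0.16 kept 19987 and 14030 genes. Counts were scaled by TMM and tested with the quasi-likelihood method (two-sided, Benjamini-Hochberg over all genes, threshold 0.05), the 4 forelimb libraries alone and the 8 culture libraries together. CPM use the scaled library sizes. DESeq2 1.42.0 was an alternative. The code was tested on simulated data.

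Every member was named. Of the 45 neighbouring genes up to 3 with the smallest p per comparison were named, and for Impdh1 and Impdh2 the 3 most correlated genes. A result that this rule would name is not reported here. The members and lists were chosen with earlier results of these data known. Same-numbered culture libraries deviated together in all 6 pairs of groups (r 0.343 to 0.609), so the numbers were taken to pair them. The labels give no pairing, and a batch shared by a replicate number cannot be told apart from it. Blocked values are given where they change a call.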

Additional observations from a re-analysis of the deposited data

Results flagged for a closer look

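Guk1, the kinase that makes GDP from GMP, had libraries that lay in opposite directions in the forelimb knockout and in the R40D3 cultures of the LysM-cKO. In the forelimb both Prx-cKO libraries lay above both WT libraries (log2 fold change 0.54), as for 22.2% of all genes. In the R40D3 cultures both LysM-cKO libraries lay below both WT libraries (log2 fold change −0.37), where 38.7% of all genes did not overlap in either direction. Every member was searched for such a pattern under both titles, and the share of all genes that show it is not given here. At R0D3 the genotypes overlapped (12.2 and 15.05 CPM in WT against 12.01 and 15.5 CPM in LysM-cKO, log2 fold change 0.013). Neither of the first 2 values passed in edgeR (adjusted p 0.465 and 0.659), and the difference between them was not tested.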

How the results depend on the processing

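Of 956 alternative values of the members' fold changes, 863 kept their sign and their side of the threshold, 26 lost a call, 12 gained one and 55 changed sign, of which 0 had a call with either sign. With library size alone Gmps in the forelimb became −0.018, and at R40D3 between genotypes Impdh1 became 0.015, Pnp 0.016 and Impdh2 −1.69 (edgeR adjusted p 0.05005), with 0 genes and 0 members called. With no filter Guk1 at R0D3 became −0.0030, and 0 members were called between titles in WT. DESeq2 called 301 genes in the forelimb, 76 between culture genotypes (2 members), 12 at R40D3 and 7 at R0D3, and 2 members between titles in WT. With only the 4 libraries compared, Impdh2 was −1.72 at R40D3 (edgeR adjusted p 0.578) and −1.82 at R0D3 (edgeR adjusted p 0.408). In each, 0 genes and 0 members were called. Between titles, 2 members were called in WT and 533 genes in LysM-cKO. For the member counts between titles in WT in these alternatives, the share of all genes is not given here. The main fit called 16.9% of all genes in that comparison. The term for Xist-type called 1 gene in the forelimb.

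The replicate block, in cultures whose numbers were taken to pair the samples, called 135 genes between genotypes and 30 at R40D3. Between titles it called 5 members, 3977 genes and 3 members in WT, and 2983 genes and 2 members in LysM-cKO. It changed no other call of a member. In the forelimb r was 0.261 for the 1 pair of groups, and the numbers were not taken to pair the libraries. No cutoff for r is given here. Same-numbered forelimb libraries also differed in whether Xist or Ddx3y had more counts, so this r cannot decide whether they are paired. The block called 0 genes there.

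Leaving out 1 library moved the genes called to 0 to 603 in the forelimb (603 without WT replicate 1, 104 without WT replicate 2), 0 at R40D3 and 0 at R0D3 between genotypes, 2364 to 3522 between titles, 689 to 1699 in WT and 399 to 1317 in LysM-cKO. Members called became 0 at R40D3 and 0 at R0D3, 0 to 2 between titles and 0 in WT. Impdh2 gave −1.81 to −1.65 (R40D3) and −1.97 to −1.63 (R0D3), where the lone library of an arm is assumed to vary like the other groups. Sign changes gave these ranges of log2 fold change between genotypes. Over both titles they were −0.20 to 0.060 (Gch1), −0.090 to 0.28 (Gmpr), −0.10 to 0.16 (Gmpr2), −0.015 to 0.083 (Impdh1) and −0.10 to 0.094 (Pnp). At R40D3 they were −0.32 to 0.027 (Gch1), −0.56 to 0.17 (Gmpr), −0.028 to 0.26 (Gmpr2), −0.088 to 0.046 (Impdh1) and −0.12 to 0.081 (Pnp). At R0D3 they were −0.25 to 0.26 (Gch1), −0.31 to 0.20 (Gmpr2), −0.18 to 0.17 (Guk1), −0.14 to 0.34 (Hprt), −0.0044 to 0.19 (Impdh1) and −0.18 to 0.21 (Pnp). Between titles they were −0.25 to 0.0044 (Gmpr2). In WT they were −0.073 to 0.51 (Gda), −0.46 to 0.046 (Gmpr2), −0.035 to 0.18 (Gmps), −0.089 to 0.022 (Impdh1) and −0.081 to 0.26 (Impdh2), and in LysM-cKO −0.20 to 0.087 (Gmpr2), −0.15 to 0.27 (Guk1) and −0.41 to 0.013 (Pnp). For the interaction they were −0.40 to 0.10 (Gch1), −0.057 to 0.52 (Gda), −0.084 to 0.42 (Gmpr2), −0.12 to 0.36 (Hprt), −0.10 to 0.24 (Impdh2) and −0.23 to 0.16 (Pnp). The causes were not tested. Low counts limit Gda in the forelimb (2 to 8 counts) and Impdh2 in LysM-cKO cultures (116 to 146 counts).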
